A study of Mus musculus with 9 samples.

Results

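Axon guidance in mammals rests on a few families of secreted or membrane-bound cues and the receptors that read them. The genes described here are the 69 protein-coding mouse genes of those families, taken by symbol from the 21887 protein-coding genes of the RefSeq table used: 20 semaphorins, 9 plexins, 2 neuropilins, 8 ephrins, 14 Eph receptors, 3 Slits, 4 Robos, 4 netrins and 5 netrin receptors (Dcc and Unc5a to Unc5d). Of these, 35 are ligands and 34 are receptors. The rule used gene symbols and no measured value, though the families were chosen with earlier results of these data known.

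Semaphorins signal through plexins, with neuropilins as partners for most secreted class 3 members. Ephrins are tethered to the membrane and bind Eph receptor tyrosine kinases on the neighbouring cell, Slits repel through Robo receptors, and netrins attract or repel through DCC and UNC5 proteins. The families were named for growth cones, but oligodendrocyte progenitor cells (OPCs) also carry these receptors and respond to netrin, semaphorin and ephrin cues while they migrate and while they contact axons, and oligodendrocytes (OLs) present some of the ligands themselves.

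The measurement was chromatin immunoprecipitation with sequencing (ChIP-seq) in OPCs and in O1-positive OLs made from them in culture. H3K27ac, the acetylated form of lysine 27 on histone H3 that marks promoters and enhancers in use, was mapped with 9 µg of antibody, and SOX6, a transcription factor of the oligodendrocyte lineage, with 15 µg. The cells came from 2 mouse epiblast stem cell lines, EpiSC5 of strain 129SvEv and 129O1 of strain 129S1/SvImJ, and both were grown without SHH. OPCs of both lines had been sorted on CD140a and NG2, expanded in medium with bFGF and PDGFA and harvested on a magnetic sorter, as were the O1-positive OLs. There were 7 peak lists: H3K27ac in OPC and in OL of both lines, SOX6 in OPC of both lines, and SOX6 in OL of EpiSC5 alone. Each of the 2 lines gave 1 library per state and mark and was the replicate. The labels do not say that separate cultures were used, and the p-values therefore reflect the spread between these libraries alone. An exact two-sided test of 2 libraries against 2 cannot go below p = 0.333.

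Wherever a pair of values is given for a state, 129O1 stands first and EpiSC5 second. The H3K27ac lists held 27731 to 33808 peaks and covered 37.2 to 50.9 Mb, and the OL lists had the lower median −log10 q per peak (10.8 and 9.48, against 17.6 and 12.8 in OPC). The SOX6 lists held 22883 and 15490 peaks in OPC and 3949 in OL of EpiSC5. Marker genes were measured as the H3K27ac-covered length over each gene and the 10 kb on each side of it. The 8 oligodendrocyte markers summed to 29.0 and 22.3 kb in OPC and to 111 and 143 kb in OL, and the 7 OPC markers to 91.0 and 77.9 kb in OPC and to 63.9 and 52.3 kb in OL. The 8 neuron markers summed to 55.9 and 44.7 kb in OPC and to 34.4 and 22.1 kb in OL, with Neurod6 at 0 in all 4 lists, and they moved in the same direction as the plexins and ephrins below. Their part in those results was not tested. The 6 astrocyte markers summed to 30.8 and 24.8 kb in OPC and to 44.4 and 20.1 kb in OL, and the 4 pluripotency markers to 1.00 to 5.25 kb, with Dppa4 at 0. The 5 microglial and 4 endothelial markers stayed between 1.90 and 8.16 kb in every list, with Cx3cr1 and Cdh5 at 0 throughout.

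The breadth of H3K27ac at a gene was likewise its covered length in kb over the body plus 10 kb each side. Between the states it was compared after scaling the 4 lists to equal total covered length, as log2 of scaled kb plus 1, with limma on the 12459 protein-coding genes whose mean over the lists reached 1 kb. A gene was called wider or narrower in OL at a Benjamini-Hochberg adjusted p under 0.05 with the same direction in both lines. Of the 69 guidance genes, 53 had enough coverage to be tested, and the other 16 had means of 0 to 0.988 scaled kb. H3K27ac was present in all 4 lists at 46 of the 69 (at 56.7% of all protein-coding genes) and in none at 2 (27.9%). It was present in both OPC lists and no OL list at 3, Sema3g, Efna3 and Epha3 (2.61% of all genes), and in both OL lists and no OPC list at 2, Sema4a and Epha8 (1.92%). The other 9 untested genes, Sema6b, Sema6c, Epha2, Ephb4, Ephb6, Robo3, Robo4, Unc5a and Unc5d, had 0 to 2.40 kb in single lists. By the rule above, 13 of the 53 were wider in OL, 14 were narrower and 26 were not called. As a share of the genes tested this was 24.5% wider and 26.4% narrower, beside 12.5% and 16.4% over all genes tested, and 50.9% called either way, beside 28.9%. The 69 guidance genes were longer than all protein-coding genes (median 46.3 and 17.2 kb). They were also more covered, with medians of 3.10 and 1.69 kb in OPC of 129O1. Whether this bore on the share called was not tested. The median change of the 53 was −0.04 on the log2 scale and that of all tested genes was −0.24, so the typical gene had a lower value in OL after scaling. Without scaling the all-gene median was −0.13 and the guidance genes gave 14 wider and 10 narrower calls, a split of 58.3% wider in place of 48.1%. With equal numbers of peaks taken from each list there were 7 wider and 14 narrower calls, 33.3% wider.

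The calls did not hold in limma fits that left out either OPC library. Fits with a library left out drop the line term and do not apply the same-direction rule. Their residual spread comes from the 2 libraries of the other state. They therefore cannot show whether the calls depend on 1 library. By line, the median change of the 53 was −0.14 in 129O1 and −0.04 in EpiSC5, and 45 of them had the same sign in both. A narrower domain can come from fewer cells that carry the mark or from less of it per cell, and peak lists cannot tell these apart.

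**Figure D1:**
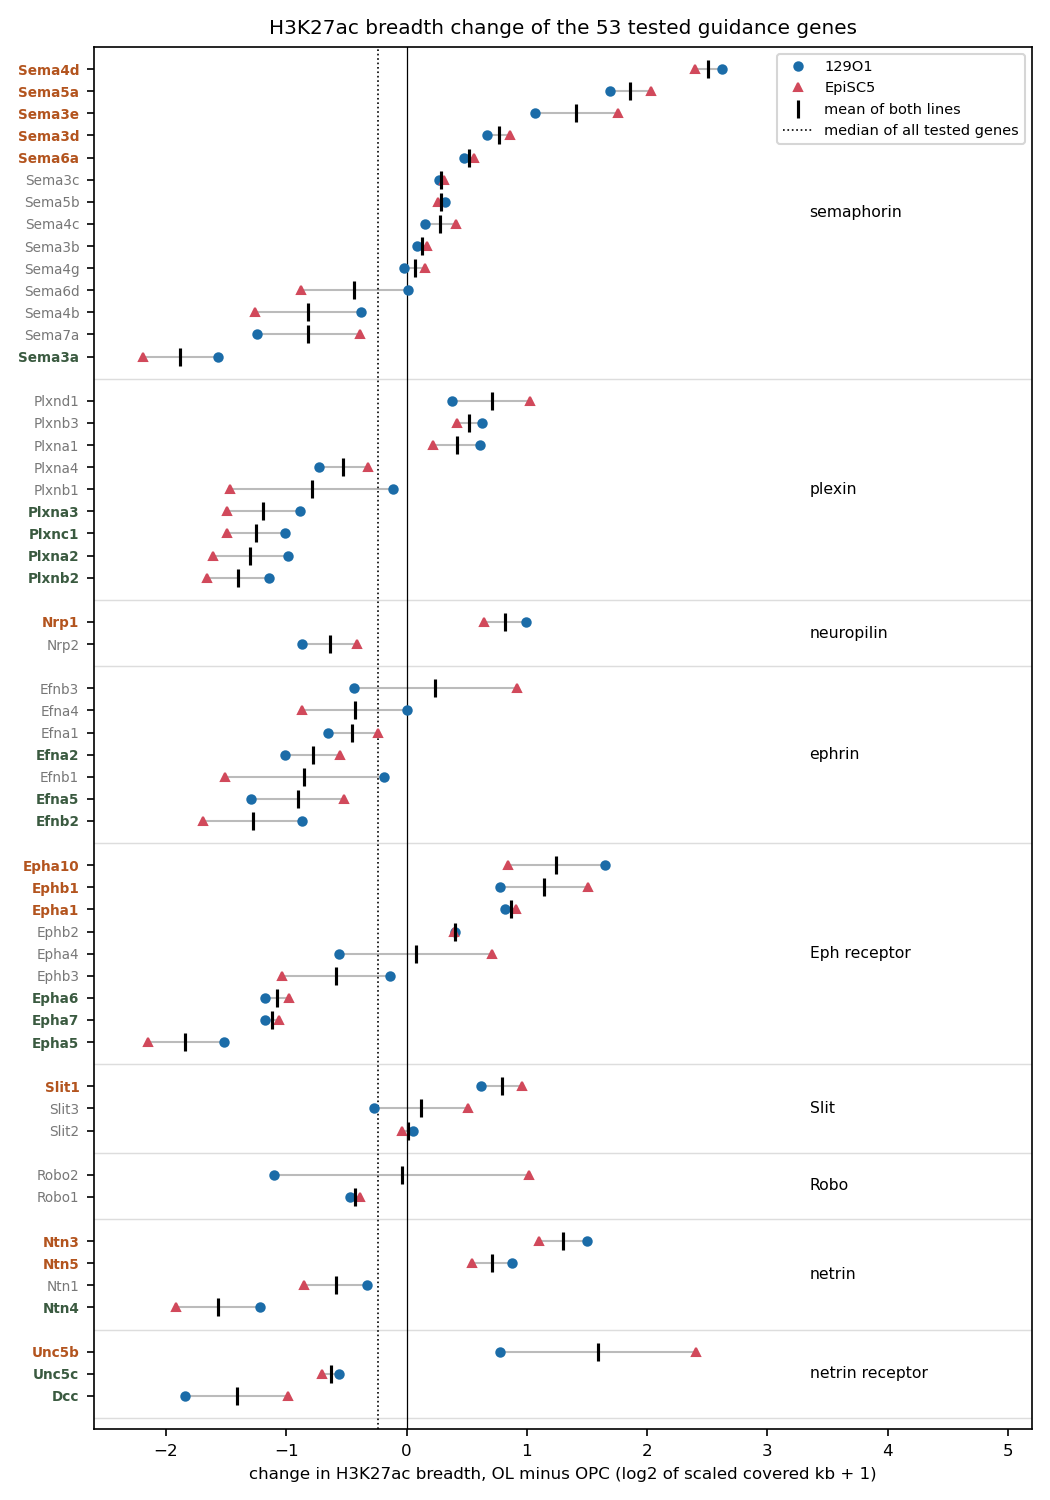
Change in H3K27ac breadth from OPC to OL (x axis, log2 of scaled covered kb plus 1) for the 53 tested guidance genes, grouped by family. Circles are line 129O1, triangles are EpiSC5 and black ticks are the mean of both lines. The 13 wider genes are named in orange and the 14 narrower in green, the dotted line is the median of all tested genes at −0.24, and Sema4d at 2.51 and Sema3a at −1.88 mark the ends.

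By role and by family the calls come from small sets, of 2 to 28 tested genes. Among ligands 8 of 28 tested were wider (28.6%) and 5 narrower (17.9%). Among receptors 5 of 25 were wider (20.0%) and 9 narrower (36.0%). Over all tested genes the shares were 12.5% and 16.4%. The semaphorins gave 5 wider and 1 narrower of 14, while the plexins gave 0 wider and 4 narrower of 9 and the ephrins 0 wider and 3 narrower of 7. The Eph receptors divided evenly, 3 wider and 3 narrower of 9. The Slits gave 1 wider of 3, the Robos no call of 2, the netrins 2 wider and 1 narrower of 4, the neuropilins 1 wider of 2, and the netrin receptors 1 wider and 2 narrower of 3. Scaling bore on these counts: without it 1 plexin was wider, only 1 ephrin was narrower and no netrin receptor was called (limma; all 3 netrin receptors kept the sign of their change). With equal numbers of peaks 4 semaphorins were wider and 2 narrower, 1 Eph receptor was wider and 3 narrower, and no neuropilin or Slit was called. With 50 kb on each side ligands gave 7 wider and 8 narrower calls and receptors 4 and 12. The netrins then gave 0 wider and 2 narrower. Without the line term ligands gave 4 wider and 4 narrower calls and receptors 1 and 8.

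Summed over the 20 semaphorins, scaled covered length was 103 and 110 kb in OPC and 182 and 202 kb in OL. Sema4d and Sema5a carried most of that difference: the other 18 semaphorins summed to 80.7 and 88.3 kb in OPC and to 87.4 and 97.9 kb in OL, so that the states overlapped. The 9 plexins summed to 48.8 and 41.2 kb in OPC and to 34.4 and 20.5 kb in OL, and the 8 ephrins to 18.6 and 12.8 kb in OPC and to 8.30 and 6.10 kb in OL. The scaled sums of the plexins and of the ephrins did not overlap between the states, but without scaling the plexins had 52.8 and 34.1 kb in OPC and 38.9 and 19.8 kb in OL, which overlapped. The 14 Eph receptors summed to 48.6 and 32.3 kb in OPC and to 49.6 and 38.9 kb in OL, so that the states overlapped.

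**Figure D2:**
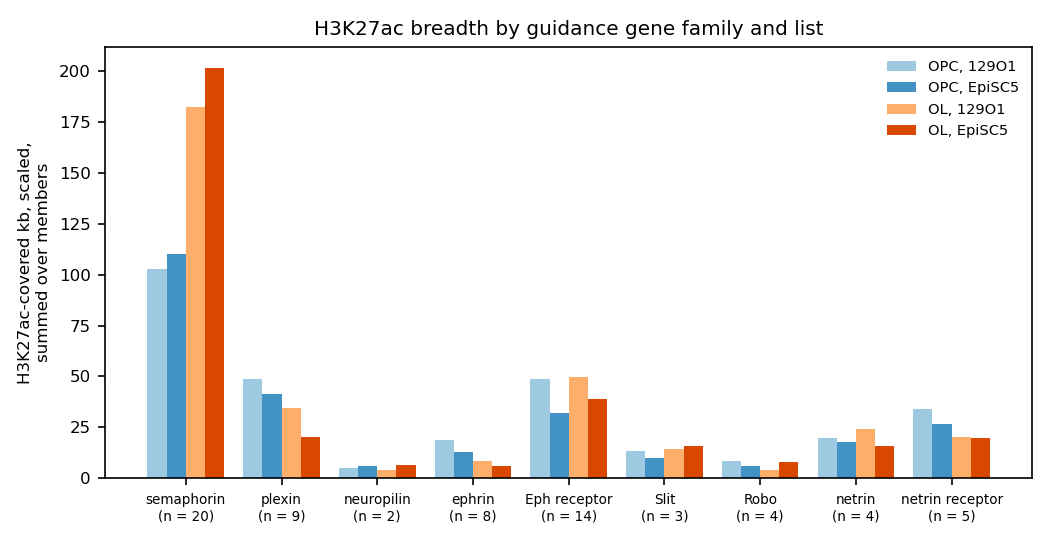
Scaled H3K27ac-covered kb (y axis, linear, from 0) summed over all members of each guidance family, with 1 bar per list and n the number of genes. Semaphorins stand at 103 and 110 kb in OPC and at 182 and 202 kb in OL, plexins and ephrins have their 2 lowest bars in OL, and Eph receptors overlap between states. There are 2 lines per state, shown singly, so no error bar is drawn.

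Sema4d and Sema5a had the largest gains of the ligands. Sema4d, a membrane-bound class 4 semaphorin that signals through plexin-B1 and is a known product of myelinating oligodendrocytes, lies at chr13:51685529-51793678 (mm10) on the minus strand. Its H3K27ac-covered length was 6.20 and 5.22 kb in OPC and 45.7 and 36.2 kb in OL. The OL values were far above both OPC values, and the share of the gene body under H3K27ac went from 5.73% and 4.80% to 38.1% and 29.6%. The change was 2.51 ± 0.16 (SE, n = 2 lines, limma adjusted p = 0.00208), 2.62 in 129O1 and 2.40 in EpiSC5, which ranked 43 among the 12459 genes ordered from the widest gain. Its widest region was a stretch of 20636 bp at chr13:51745546-51766181, of which 3866 and 3100 bp were covered in OPC and 18939 and 18195 bp in OL. A further 6 of the 14 regions of the gene were present in both OL lists and in neither OPC list.

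That stretch holds a listed start site of Sema4d whose promoter window (250 bases before to 50 after the start) was covered by H3K27ac in both OL lists and in no OPC list. The single SOX6 peak of the OL list there, chr13:51748789-51749112, had the authors' fold enrichment of 6.53 and its summit 203 bp from that start, and neither OPC list had SOX6 at this place. Sema4a, another class 4 semaphorin with 4 listed starts, was too little covered to be tested. Only 1 of these starts had H3K27ac in any list, and it too was covered in OL alone. Its region, chr3:88460118-88461909, had 0 bp in both OPC lists, and 1792 and 1488 bp in OL of 129O1 and EpiSC5. Such starts were rare, 123 of the 21263 listed starts of protein-coding genes (0.578%), of which 3 were among the 75 listed starts of guidance genes, 2 at Sema4d and 1 at Sema4a. The second OL-only window of Sema4d, chr13:51756634-51756933, held none of the SOX motif letters marked below and had no SOX6 peak in any list. The other 2 promoter windows are shown, that of Sema4d because it holds a SOX motif. They are RefSeq sequence of GRCm38.p6, 5′ to 3′ along the gene's strand, chr13:51748761-51749060 (minus strand) for Sema4d and chr3:88461133-88461432 (minus strand) for Sema4a. Capitals mark AACAAT, the core letters that SOX proteins recognise, or its reverse complement ATTGTT, and the related ACAAAG or CTTTGT, all searched on both strands; the motifs share letters but no hit overlapped another here.
Sema4d: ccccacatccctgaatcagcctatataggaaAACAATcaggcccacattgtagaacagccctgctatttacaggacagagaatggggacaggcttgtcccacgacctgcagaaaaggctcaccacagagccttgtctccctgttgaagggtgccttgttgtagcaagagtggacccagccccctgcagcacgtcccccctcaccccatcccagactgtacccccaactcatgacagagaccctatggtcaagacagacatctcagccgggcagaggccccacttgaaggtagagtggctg
Sema4a: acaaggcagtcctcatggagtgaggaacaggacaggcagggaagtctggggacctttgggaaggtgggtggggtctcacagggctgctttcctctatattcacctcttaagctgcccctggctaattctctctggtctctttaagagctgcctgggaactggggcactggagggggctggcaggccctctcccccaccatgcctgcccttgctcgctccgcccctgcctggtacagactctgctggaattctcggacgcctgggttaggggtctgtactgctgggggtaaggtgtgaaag
The AACAAT of Sema4d begins at base 32 of the window, 219 bases before the start, and its centre was 13 bp from the SOX6 summit of the OL list. The Sema4a window holds neither motif and had no SOX6 peak in any list.

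Sema5a, a transmembrane semaphorin with thrombospondin repeats that has been linked to inhibition by oligodendrocyte-lineage cells, lies at chr15:32244813-32696341 on the plus strand. Its covered length was 17.5 and 12.8 kb in OPC and 61.4 and 64.0 kb in OL. Both OL values were more than 3 times either OPC value, with a change of 1.86 ± 0.15 (SE, limma adjusted p = 0.00246). The gain was spread over the gene: of its 39 H3K27ac regions, 21 were in both OL lists only, 8 in all 4 lists and 0 in both OPC lists only.

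The other wider semaphorins were Sema3e, Sema3d and Sema6a. Sema3e, a secreted ligand of plexin-D1, had 0.734 and 1.27 kb in OPC and 2.84 and 7.31 kb in OL, a change of 1.41 ± 0.22 (SE, limma adjusted p = 0.00892). Sema3d, secreted as well, had 5.52 and 7.71 kb in OPC and 9.84 and 17.2 kb in OL. For both genes the OL values were above the OPC values, and EpiSC5 was above 129O1 within each state. Sema6a, a transmembrane ligand of class A plexins, had 15.8 kb in OPC of either line and 23.6 and 27.7 kb in OL, the smallest called gain (0.52 ± 0.15, limma adjusted p = 0.0438). Sema3d and Sema6a lost their calls with equal numbers of peaks per list, and all 3 lost them without the line term.

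Sema3a moved the other way. It codes for the secreted semaphorin that repels growth cones and OPCs through neuropilin-1, and it lies at chr5:13124822-13603485 on the plus strand. Its covered length was 12.2 and 9.90 kb in OPC and 3.56 and 1.78 kb in OL. Neither OL list reached an OPC list, and the change was −1.88 ± 0.21 (SE, limma adjusted p = 0.00421), −1.57 in 129O1 and −2.19 in EpiSC5. Of its 8 regions, 4 were in both OPC lists only and 0 in both OL lists only. The remaining 8 tested semaphorins ranged in mean covered length from 1.36 to 14.8 scaled kb and were not called. Sema3f and Sema4f had no H3K27ac and no SOX6 in any list.

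**Figure D3:**
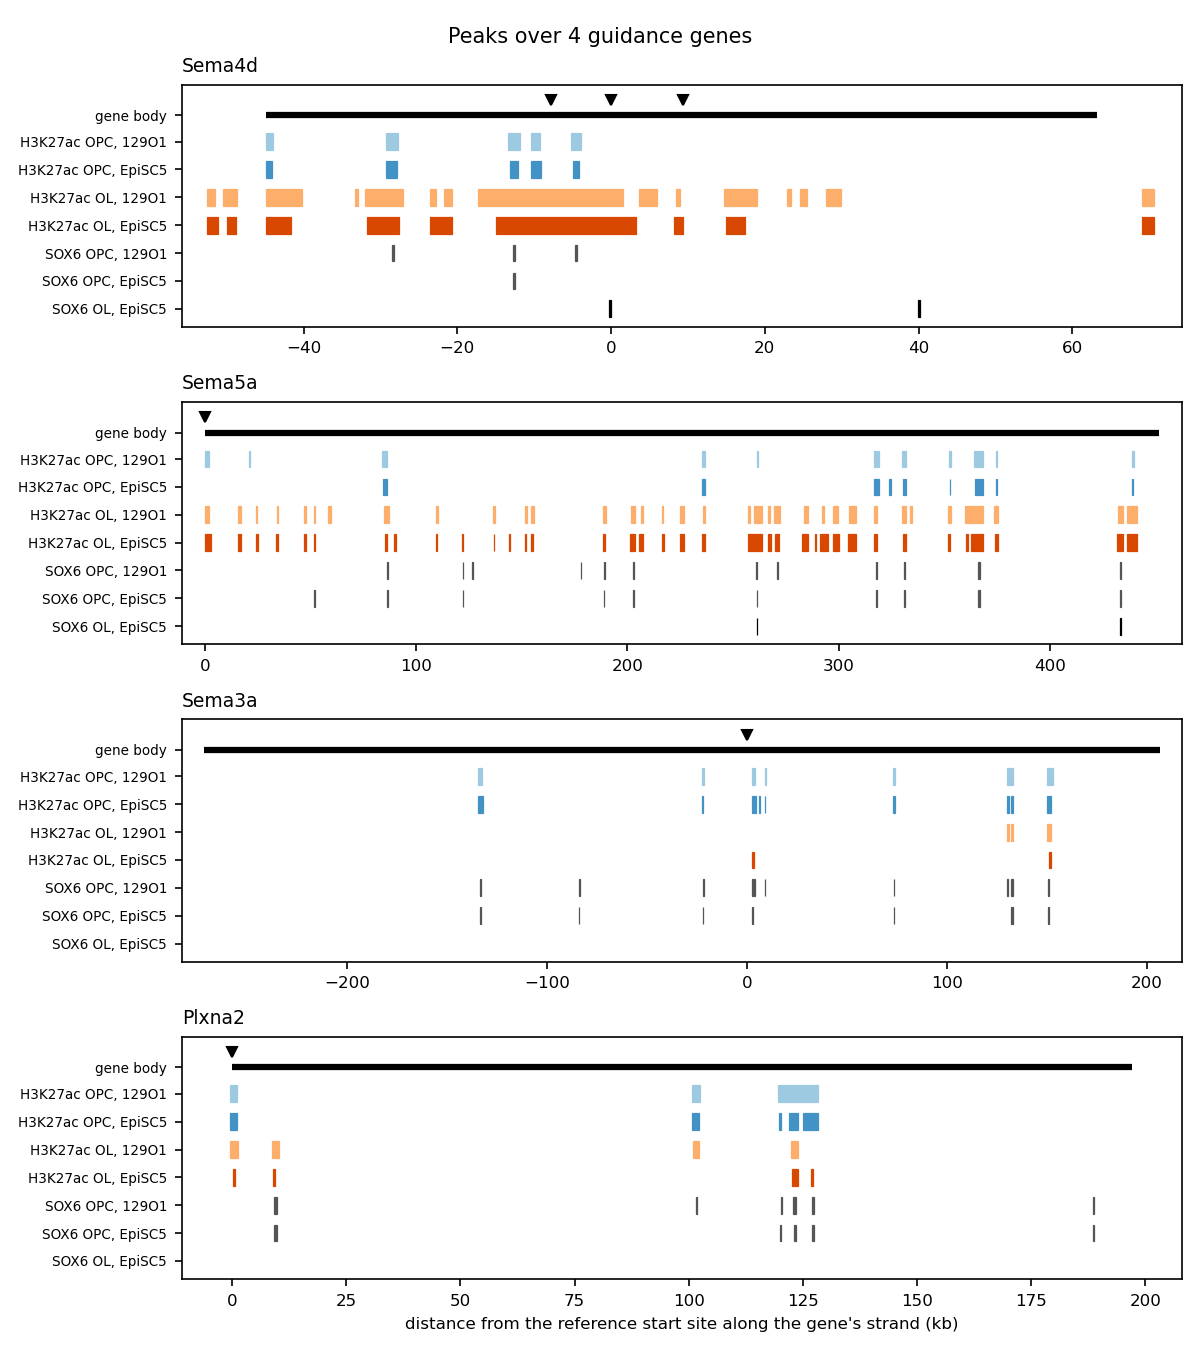
Peaks of the 7 lists over Sema4d, Sema5a, Sema3a and Plxna2 (x axis, kb from a listed start site along the gene's strand). The black bar is the gene body, arrowheads are listed starts, blue and orange boxes are H3K27ac peaks in OPC and OL, and grey and black boxes are SOX6 peaks. The broad OL stretch of Sema4d spans its start, Sema5a has 21 regions seen in both OL lists only, Sema3a has 4 seen in both OPC lists only, and Plxna2 loses most coverage at a stretch deep inside the gene.

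Plexins, the semaphorin receptors, had only narrower calls. Plxnb2, which codes for the class B plexin of several class 4 semaphorins, lies at chr15:89155546-89182018 on the minus strand and had 8.43 and 6.27 kb in OPC and 3.39 and 1.65 kb in OL. The states did not overlap (−1.40 ± 0.20, SE, limma adjusted p = 0.0078). The largest loss lay around 1 of its 2 listed starts. That region, chr15:89176942-89181506, had 4565 and 3563 bp covered in OPC and 1151 and 451 bp in OL. Smaller losses lay at chr15:89149103-89150222, from 1120 and 847 bp to 0, and at chr15:89172739-89173704, from 966 and 582 bp to 461 and 0 bp. Plxna2, a class A plexin that binds neuropilins and class 6 semaphorins, lies at chr1:194619791-194816869 on the plus strand and had 12.2 and 8.43 kb in OPC and 5.84 and 2.57 kb in OL (−1.3 ± 0.21, limma adjusted p = 0.0104). Its loss lay inside the gene, at chr1:194739304-194748116, where coverage was 8812 and 5474 bp in OPC and 1402 and 1706 bp in OL.

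Plxnc1, the receptor of semaphorin 7A, had 5.88 and 4.39 kb in OPC and 2.49 and 1.20 kb in OL (−1.25). Plxna3, on the X chromosome, had 2.22 and 1.5 kb in OPC and 0.737 and 0 kb in OL (−1.19), and 32.5% of its covered length lay in the bodies of other genes. In neither gene did the states overlap. Of the 5 plexins not called, Plxnb1, the usual receptor of Sema4d, had 5.03 and 4.77 kb in OPC and 4.80 and 1.40 kb in OL, so that OL of 129O1 was above OPC of EpiSC5.

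Plxnb3, a class B plexin of oligodendrocytes, was not called either but carried SOX6 at its start, in a peak of 706 and 737 bp in the OPC lists and none in the OL list. Its promoter window at chrX:73756853-73757152 (plus strand) is shown because the SOX6 summits of both OPC lists fall on SOX motif letters in it, with capitals as above.
Plxnb3: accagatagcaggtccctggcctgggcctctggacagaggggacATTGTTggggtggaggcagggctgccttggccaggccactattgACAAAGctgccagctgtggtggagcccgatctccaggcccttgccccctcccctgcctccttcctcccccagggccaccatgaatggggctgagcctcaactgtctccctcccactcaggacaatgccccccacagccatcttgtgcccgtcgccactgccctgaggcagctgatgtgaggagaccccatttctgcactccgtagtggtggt
The ATTGTT at base 45 was centred 41 bp from the summit in 129O1 and 0 bp from it in EpiSC5, and the ACAAAG at base 89 was 2 bp and 43 bp away. H3K27ac covered this window in all 4 lists, 3.76 and 3.55 kb over the whole gene window in OPC and 6.68 and 5.85 kb in OL.

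The neuropilins, co-receptors of class 3 semaphorins, did not move alike. Nrp1 had 0.685 and 1.59 kb in OPC and 2.54 and 3.45 kb in OL, and it was called wider (0.82 ± 0.19, SE, limma adjusted p = 0.0262). With 50 kb on each side its change was −0.01. Nrp2 had 4.71 and 3.34 kb in OPC and 2.18 and 2.70 kb in OL, and its change of −0.64 ± 0.19 missed the threshold (limma adjusted p = 0.0536). The OPC and OL values of both genes did not overlap, and the start of Nrp2 was covered in both OPC lists and in neither OL list.

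Ephrins had no wider member. Efnb2, the transmembrane ephrin-B2, had 2.17 and 1.85 kb in OPC and 0.734 and 0 kb in OL (−1.28 ± 0.28, SE, limma adjusted p = 0.024). Efna5, a lipid-anchored ephrin that collapses growth cones, had 5.67 and 2.14 kb in OPC and 1.76 and 1.46 kb in OL (−0.90). Efna2 had 3.10 and 1.60 kb in OPC and 1.04 and 0.979 kb in OL (−0.78), with 41.3% of its covered length in other gene bodies. Within its own body the lines moved apart. The covered share there went from 5.10% to 2.45% in 129O1 and from 0% to 3.12% in EpiSC5. Over the body plus 10 kb each side the states did not overlap in any of these 3 genes. The calls were less steady across limma fits, leaving aside those with no filter on low coverage or with a library left out. The call of Efna5 was lost without scaling, with equal numbers of peaks, in the gene body alone and without the line term. That of Efna2 was lost without scaling and with a pseudocount of 0.25 kb. That of Efnb2 was lost with that pseudocount and with 50 kb on each side. Efna2 and Efnb2 were not tested in the gene body alone.

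Eph receptors had as many wider as narrower calls. Epha5, a receptor of ephrin-A ligands found mostly in neurons, lies at chr5:84054761-84417818 on the minus strand and had 4.66 and 2.85 kb in OPC and 0.958 and 0 kb in OL. The OL values were well below the OPC values (−1.84 ± 0.23, SE, limma adjusted p = 0.00507). Most of it was 1 region at the start, chr5:84414017-84418004, with 3988 and 2848 bp in OPC and 958 and 0 bp in OL, and 39.8% of the covered length lay in the body of Gm42163, an overlapping gene. Epha6 had 2.78 and 2.63 kb in OPC and 0.648 and 1.08 kb in OL (−1.08). Epha7 had 5.11 and 0.896 kb in OPC and 1.72 and 0 kb in OL (−1.12), so its lines differed more than its states and OL of 129O1 lay above OPC of EpiSC5.

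Among the wider Eph receptors, Ephb1 lies at chr9:101922128-102354693 on the minus strand. It had 9.26 and 2.78 kb in OPC and 17.4 and 10.98 kb in OL (1.14 ± 0.22, SE, limma adjusted p = 0.0173), with 6 of 15 regions in both OL lists only. Epha1 had 2.58 and 1.90 kb in OPC and 5.63 and 5.00 kb in OL (0.87), and 39.7% of its covered length was in the body of Zyx, a neighbour. Epha10, an Eph protein without kinase activity, had 0 and 0.971 kb in OPC and 2.42 and 2.79 kb in OL (1.24). None of these 3 genes overlapped between the states, and Ephb1 and Epha10 lost their calls with equal numbers of peaks or without the line term. Ephb2, a receptor of ephrin-B ligands, had 13.8 and 9.29 kb in OPC and 19.4 and 14.5 kb in OL and was not called (0.40 ± 0.16, limma adjusted p = 0.106).

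Ephb1 also had SOX6 at its start in both OPC lists, and its promoter window at chr9:102354644-102354943 (minus strand) is shown because it holds a SOX motif close to both summits.
Ephb1: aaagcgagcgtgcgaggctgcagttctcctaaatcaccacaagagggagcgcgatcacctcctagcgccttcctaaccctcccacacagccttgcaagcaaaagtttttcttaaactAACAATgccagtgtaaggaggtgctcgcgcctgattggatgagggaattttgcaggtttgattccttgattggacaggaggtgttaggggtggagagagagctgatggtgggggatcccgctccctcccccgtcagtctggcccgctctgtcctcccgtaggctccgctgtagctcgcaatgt
The AACAAT at base 118 was centred 7 bp from the SOX6 summit in 129O1 and 11 bp from it in EpiSC5, and the authors' fold enrichments of these peaks were 4.88 and 3.62. Over all 75 listed starts of guidance genes, AACAAT or ATTGTT was present in 3 (4.0%), those of Sema4d, Plxnb3 and Ephb1, and in 9.05% of the 21263 listed starts of protein-coding genes. All 3 carried a SOX6 peak in at least 1 list, as did 10 of the 75 in all (13.3%), while over all genes 14.2% of starts with the motif and 16.9% of all starts carried one. ACAAAG or CTTTGT was present in 10 of the 75 (13.3%), of which 1 carried SOX6, and in 16.8% of all starts. These matches describe the letters in the windows.

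Slit1, a secreted repellent, had 3.09 and 2.67 kb in OPC and 5.57 and 6.99 kb in OL, and it was the called Slit (0.79 ± 0.19, SE, limma adjusted p = 0.0272). Slit3 had 7.78 and 2.58 kb in OPC and 6.56 and 4.71 kb in OL, with overlapping states (0.12 ± 0.23, limma adjusted p = 0.69). Of the Robo receptors, Robo1 had 4.22 and 4.26 kb in OPC and 2.88 and 3.56 kb in OL and was not called (−0.43 ± 0.17, limma adjusted p = 0.106). Robo1 and Robo2 are 1020 and 1555 kb long, and at most 0.417% of either body was covered in any list.

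Netrins are secreted, laminin-related cues. Ntn4 had 2.80 and 3.02 kb in OPC and 0.616 and 0.223 kb in OL, with no overlap (−1.57 ± 0.24, SE, limma adjusted p = 0.00892). Its other region, chr10:93735781-93737385, was covered over 1418 and 1451 bp in OPC and not at all in OL. Ntn1, the founding netrin, had 12.1 and 6.85 kb in OPC and 9.83 and 3.99 kb in OL and was not called (−0.59 ± 0.20, limma adjusted p = 0.072). Ntn3 and Ntn5 were called wider (1.3 and 0.71), but 79.9% and 94.0% of their covered length lay in the bodies of neighbours, Tbc1d24 and Tedc2 for Ntn3 and Car11 and Sec1 for Ntn5. Within the body of Ntn3 alone the change was 0.03 (limma adjusted p = 0.924).

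Among netrin receptors, Dcc, at chr18:71253613-72351228, codes for the receptor through which netrin-1 attracts. It had 20.0 and 11.6 kb in OPC and 5.03 and 6.36 kb in OL (−1.41 ± 0.24, SE, limma adjusted p = 0.0115). Of its 13 regions, 5 were in both OPC lists only. Unc5c, a repulsive receptor, had 11.8 and 9.67 kb in OPC and 7.95 and 6.56 kb in OL (−0.63 ± 0.17, limma adjusted p = 0.0397). Unc5b, its relative at chr10:60762594-60831581 on the minus strand, went the other way, with 4.42 and 0.158 kb in OPC and 8.71 and 5.16 kb in OL (1.59 ± 0.37, limma adjusted p = 0.0272). The states did not overlap in any of the 3 genes. The largest gain of Unc5b lay at chr10:60815371-60821195, covered over 1060 and 0 bp in OPC and 5825 and 4989 bp in OL. Another region, chr10:60792315-60793867, was covered in OL of 129O1 alone, over 1553 bp. The change of the gene was 0.78 in 129O1 and 2.41 in EpiSC5. None of the 3 calls held without scaling (adjusted p of 0.054 for Dcc and 0.0663 for Unc5b by limma) or with the higher-scoring 50% of each list. The call of Unc5b was also lost with a pseudocount of 0.25 kb, with equal numbers of peaks and without the line term.

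Between the lines, limma called 0 of the 53 guidance genes, and 17 stood at an unadjusted p under 0.05. The share of all tested genes under that unadjusted threshold is not given here, so the 17 cannot be read as particular to guidance genes. Over all genes 11 were called, 0.0883% of those tested. The values farthest apart were those of Epha7, where 129O1 exceeded EpiSC5 by 1.40 ± 0.20 (SE) on the log2 scale in the mean of both states (adjusted p = 0.194), and Epha4 (1.38, adjusted p = 0.399). Epha4, the receptor that binds both ephrin classes, had 5.86 and 3.8 kb in OPC and OL of 129O1 and 0.488 and 1.55 kb in EpiSC5. Plxna4, a receptor of class 3 and class 6 semaphorins, was 1.08 higher in 129O1 (adjusted p = 0.294) and was called once the minimum mean was raised to 3 kb. Fits of the lines with a library left out have no state term. A line with a lone library is then set against both states of the other line, so line and state are mixed. No gene is named here on a call from those fits. Epha7, Epha4 and Plxna4 are named because their values stood out.

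SOX6 lay over many guidance genes in OPC. At least 1 SOX6 peak overlapped the body plus 10 kb each side of 45 of the 69 in OPC of 129O1 (44.5% of all protein-coding genes did), of 41 in OPC of EpiSC5 (32.6% of all genes) and of 39 in both, which is 56.5% of the guidance genes and 31.2% of all genes. The median guidance gene was 46.3 kb long and the median protein-coding gene 17.2 kb, and a longer window has more room for a peak. In OL of EpiSC5 9 of the 69 had SOX6 (13.0%, beside 16.3% of all genes), and 32 had it in both OPC lists and not in OL (46.4%, beside 20.6%). The OL list is 1 library with fewer peaks, so these counts carry no test. With equal numbers of peaks in each list, 17 guidance genes had SOX6 in both OPC lists and 14 of them had none in OL. No list had SOX6 at 21 of the 69.

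**Figure D4:**
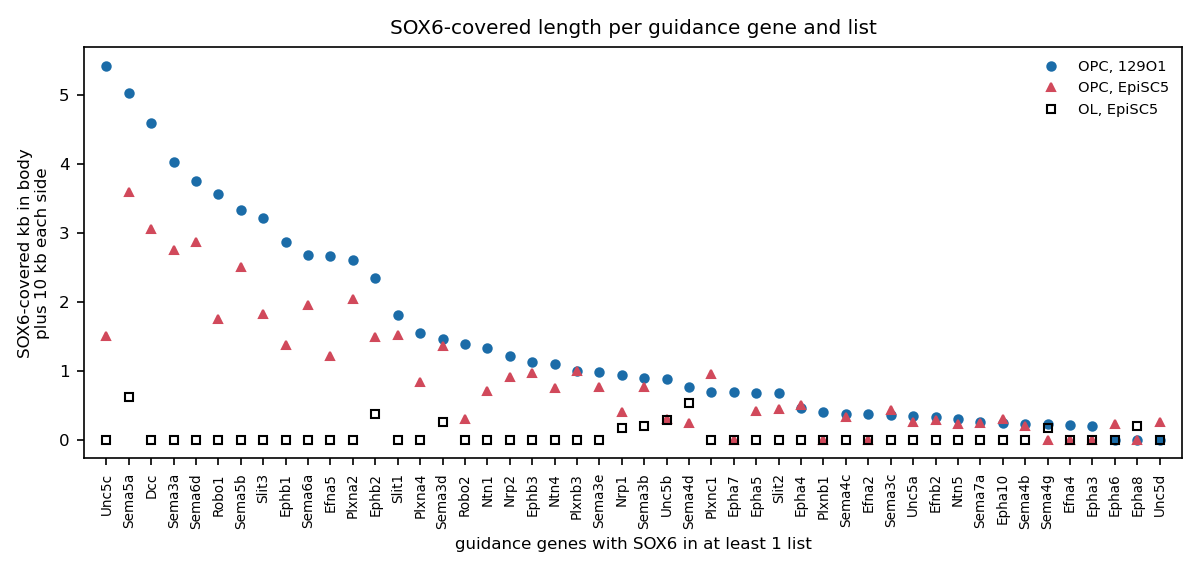
SOX6-covered kb over the gene body plus 10 kb each side (y axis, linear) for the guidance genes with SOX6 in at least 1 list, ordered by the value in OPC of 129O1. Circles are OPC of 129O1, triangles OPC of EpiSC5 and squares OL of EpiSC5. The OL squares lie at 0 for all but 9 genes, and the highest of them is Sema5a at 0.617 kb.

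Sema5a had 5.03 and 3.6 kb under SOX6 in OPC and 0.617 kb in OL. Dcc had 4.60 and 3.05 kb and Sema3a 4.03 and 2.75 kb in OPC, and both had 0 in OL. Unc5c had 5.42 and 1.51 kb in OPC and 0 in OL, so its lines were far apart. The other genes with SOX6 in OL were Sema3b, Sema3d, Sema4d, Sema4g, Nrp1, Epha8, Ephb2 and Unc5b, at 0.167 to 0.527 kb. Among plexins, Plxna2 held the strongest SOX6 peak by the authors' fold enrichment, 21.9 in 129O1 and 18.4 in EpiSC5. Its summit, at chr1:194743065 in both OPC lists, lay inside the stretch that narrowed in OL. H3K27ac still covered that point in both OL lists. At Unc5b a peak just inside the 10 kb past the 3′ end of the gene was present in all 3 SOX6 lists, and the authors' fold enrichment was 8.26 and 5.87 in OPC and 13.7 in OL. At Sema5a the OL peak chr15:32677936-32678333 (fold enrichment 12.35) lay in H3K27ac that both OL lists had and neither OPC list had, and both OPC lists had SOX6 there too (9.98 and 8.39).

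Counted by site, 120 SOX6 sites in the windows of guidance genes were shared by both OPC lists. Of these, 37 (30.8%) lay in H3K27ac of all 4 lists, 20 (16.7%) in H3K27ac of both OPC lists only, 10 (8.33%) in H3K27ac of both OL lists only and 25 (20.8%) in no H3K27ac peak. Over the genome the shares were 45.9%, 12.2%, 5.09% and 14.2% of 13883 shared sites. The OL list kept 6 of the 120 (5.0%, beside 10.4% over the genome) and had 4 sites that neither OPC list had, 2 of them at Sema4d and 1 each at Sema4g and Epha8. Both directions of H3K27ac change occurred at genes with SOX6: of the 38 tested guidance genes with SOX6 in both OPC lists (49.6% of all tested genes had it), 11 were wider in OL and 9 narrower, beside 14.8% and 19.2% of the 6183 such genes over all.

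Genes that act beside or below these receptors were read from a list of 73, of which 69 were tested: 17 were wider (24.6%, beside 12.5% of all tested genes) and 11 narrower (15.9%, beside 16.4%), with a median of 0.06. Of 13 tested kinases 4 were wider and 0 narrower. Co-receptors and adhesion partners divided 3 to 4 of 14. Chn2, a Rac GTPase-activating protein of the chimaerin family that acts below Eph receptors and plexins, had 6.65 and 5.67 kb in OPC and 52.6 and 46.0 kb in OL (2.68 ± 0.15, SE, limma adjusted p = 0.00195). Mical3, of the MICAL family of actin-oxidising enzymes, had 9.54 and 6.59 kb in OPC and 51.3 and 48.0 kb in OL (2.37). In both genes each OL value was more than 5 times either OPC value.

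Dpysl2, which codes for the semaphorin 3A mediator CRMP2, had 10.1 and 5.37 kb in OPC and 29.5 and 25.4 kb in OL (1.62). The receptor gene Met and the Eph-linked exchange factor Ngef were wider by 1.68 and 1.61. Flrt2, an adhesion protein that binds UNC5 receptors, was the most narrowed of the list, with 8.33 and 6.62 kb in OPC and 2.04 and 0.990 kb in OL (−1.89 ± 0.20, SE, limma adjusted p = 0.00377). Its relative Flrt3 changed by −1.77, Srgap2, a Rac regulator of the family that acts below Robo receptors, by −1.66, Draxin, a secreted DCC ligand, by −1.37, Mical2 by −1.27 and Vav3, an exchange factor below Eph receptors, by −1.01.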

How the data were processed

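Each of the 7 peak lists, as deposited, belongs to 1 library and has no header. Reads were handled with Bowtie2 2.3.2, Trim Galore 0.3.1, bedtools, Picard and deepTools on build mm10, per the submitters' processing notes; the peak caller is not given in the sources used here. The deposited score of each peak, the authors' fold enrichment (a ratio over background) and their −log10 p and −log10 q served only to rank or describe peaks within a list. The lists hold no counts, so depth is unknown and no counting interval was given. The labels' protocols name 2 sequencers without tying them to libraries, so a batch of that kind could not be examined. The 2 input samples were not analysed here.

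Gene bodies and promoter windows came from RefSeq tables of GRCm38.p6, the assembly that mm10 names; 59 of the 69 genes had a listed start. Exons were not used. Overlap meant at least 1 bp, and coordinates are 1-based. Covered lengths were computed in Python 3.11.15 (pandas 2.3.3, numpy 2.4.6) and tested in R 4.3.3 with limma 3.58.1 (trend, terms for line and state, 1 residual degree of freedom, prior 5.04), with p-values adjusted over all 12459 genes. The pseudocount was 1 kb, which understates changes at low coverage. Both states of each line were made from that line, so the line was a term; deviations of the 129O1 OPC and OL lists from their state means correlated at 0.274 across 12459 genes, which are not independent.

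The families, the effector and marker lists and the tests were chosen with earlier results of these data known. Named genes were those called, the most covered of each family in H3K27ac and in SOX6, and the 6 largest effector calls in each direction, of which some are not reported here; others are named where they share a site, a motif or a low value. Alternatives were another pseudocount, filter, scaling, peak number or window, no line term and each library left out.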

Additional observations from a re-analysis of the deposited data

Results flagged for a closer look

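At 2 guidance genes the H3K27ac change from OPC to OL had opposite signs in the 2 lines, each by more than 0.5 on the log2 scale of scaled covered kb plus 1. For Epha4 it was −0.56 in 129O1 and 0.71 in EpiSC5. For Robo2, a Slit receptor, it was −1.1 in 129O1 and 1.02 in EpiSC5, with 5.03 kb covered in the OPC list and 1.84 kb in the OL list of 129O1, and 0.591 and 2.40 kb in those of EpiSC5. In both genes OPC of 129O1 was the highest of the 4 lists and OPC of EpiSC5 the lowest. The difference between the lines was not tested, because 1 library per line and state leaves no spread to test it against.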

How the results depend on the processing

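The counts below are given without the share of all tested genes under the same setting. They therefore cannot show whether members or effectors lost calls more than other genes did. With no filter on low coverage limma called 0 members in either direction (13 wider and 17 narrower at an unadjusted p under 0.05) and 0 effectors (16 and 11). With the higher-scoring 50% of each list, 2 members were wider, Sema4d and Sema5a, and 0 narrower (8 at an unadjusted p under 0.05), and 5 effectors were wider and 0 narrower (6 at an unadjusted p under 0.05). With equal numbers of peaks 7 members were wider and 7 effectors narrower, and without scaling 6 effectors were narrower. Without the replicate block, the term that pairs OPC and OL of a line, 5 members were wider and 12 narrower, and 10 of the 27 calls were lost. Leaving out 1 library at a time gave 0 to 6 wider and 0 to 14 narrower members, and 0 to 16 wider and 0 to 9 narrower effectors. These fits of the states drop the line term, and the lone library is assumed to vary like the other state. The fits of the lines gave 0 to 2 members differing between the lines. They drop the state term instead, so line and state are mixed and no difference between the lines is read from them. A minimum of 3 kb gave 1 member differing between the lines. For SOX6, equal numbers of peaks gave 17 members in both OPC lists and 14 of them without SOX6 in OL; leaving out an OPC list gave 41 to 45 and 34 to 37. SOX6 in OL was found at 5 members with the higher-scoring 50% or the gene body alone and at 20 with 50 kb on each side. Changes of sign occurred for Nrp1 (−0.01 with 50 kb each side), Nrp2 (0.45 with the higher-scoring 50%) and Robo2 (0.06 with a pseudocount of 0.25 kb, 0.01 without scaling and 0.22 with 50 kb each side). Fewer genes or libraries enter several of these fits, and otherwise the cause of a difference was not tested. Of the 27 calls, Sema4d and Sema5a held in all 8 alternatives other than no filter and the left-out libraries. Sema3a, Plxna2, Plxnb2 and Plxnc1 held in all of these but the higher-scoring 50%.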
